A study of Mus musculus with 6 samples.

Results

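Ctla2a, Ctla2b, Atp13a2, the cathepsin genes Ctsb, Ctsd, Ctsl, Ctss and Ctsz, and the genes Cst3 and Lamp1 encode proteases of the lysosome, proteins that inhibit or resemble inhibitors of those proteases, and proteins of the lysosomal membrane. They were read by every probe set, a group of short probes on the array that together measure 1 transcript, whose platform annotation names exactly 1 of these 10 genes. The rule gave 17 of the 22690 probe sets. Ctla2a and Atp13a2 were chosen by their measured values in the comparison described here, so their differences are given as a description with no test. Their places in an order, their signs and the intervals drawn for them do not allow for that choice and lend no support. The other 8 genes, with 13 probe sets, were added by family or compartment.

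Lysosomes are acidic organelles in which proteins, lipids and sugars are broken down. The vacuolar proton ATPase pumps protons into them, and cathepsins cut proteins there, most of them as cysteine proteases. A cathepsin is made as an inactive precursor whose propeptide blocks the active site until it is removed, and cystatins are separate proteins that block mature cysteine cathepsins. Ctla2a and Ctla2b, mouse genes first described in activated T cells and mast cells, encode small proteins that resemble the propeptide of cathepsin L without the protease that follows it. In the thymus, cathepsin L of the epithelium and cathepsin S of dendritic and other bone marrow-derived cells degrade the invariant chain that accompanies MHC class II molecules.

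The arrays compared thymocytes carrying transgenes for the oncogenic transcription factor SCL and its cofactor LMO1 with thymocytes lacking them, in a study that looked for candidate genes of self-renewal in pre-leukemic thymocytes. Of the 6 Affymetrix mouse arrays, 3 were labelled SCLtg LMO1tg, with SCL driven by the Sil promoter and LMO1 by the Lck promoter, and 3 were labelled control, without the transgenes. Both groups were untreated CD3e-/- mice of the C57BL6 strain, 3 weeks old, which lack the CD3ε chain of the T cell receptor complex, and the tissue was thymus. Nothing in the labels or methods says that each array stands for its own mouse. Xist, transcribed from the inactive X chromosome, read 8.23, 9.40 and 10.40 in the arrays labelled SCLtg LMO1tg and 10.10, 4.70 and 9.53 in the arrays labelled control. Eif2s3y, a gene of the Y chromosome, read 5.43, 6.23 and 2.74 in the arrays labelled SCLtg LMO1tg and 3.15, 5.74 and 2.85 in the arrays labelled control. The arrays of a group were therefore not all of 1 RNA, and arrays 1 and 2 labelled SCLtg LMO1tg were high in both genes. The p-values cover the spread between these arrays.

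Values are on a log2 scale, after RMA, a method that corrects background, normalizes arrays to each other and summarizes the probes of a probe set. A difference is the mean of the arrays labelled SCLtg LMO1tg minus the mean of the arrays labelled control, so that 1 unit is a doubling of signal. A probe set was tested if it reached the 40th percentile of an array on 3 or more of the 6, which left 13776 probe sets, among them 16 of the 17 described here and 12 of the 13 of the other 8 genes. Groups were compared with limma, two-sided, with p-values adjusted over all 13776 by the Benjamini-Hochberg method, and 14 probe sets, 0.102%, passed at an adjusted p under 0.05. Array medians lay between 5.57 and 5.70 and pairwise correlations across probe sets between 0.932 and 0.988.

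The targeted gene Lmo1 was read first as a check of the labels. Its probe set read 5.11, 5.07 and 4.86 in the arrays labelled SCLtg LMO1tg, against 6.64, 6.84 and 6.77 in the arrays labelled control. Lmo1 was thus lower in every array labelled as carrying the LMO1 transgene, with a difference of −1.74 (SE 0.14, limma adjusted p = 0.00161). Tal1, the gene of SCL, lay below the filter, at 4.55, 4.63 and 4.71 in the arrays labelled SCLtg LMO1tg and 4.35, 4.27 and 4.44 in those labelled control. The sources used here do not say whether these probe sets read the transgene transcripts. Lmo1 goes against the labels, and the directions given below for Ctla2a, Atp13a2 and Nfe2 are opposite to those the study gives for these genes. The direction of Ptcra is opposite to the inhibition by SCL that the study describes. The labels were used as they stand, and every direction below rests on them.

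The bacterial control RNAs added before hybridization split the arrays into 2 sets. The mean of 9 such probe sets was 10.24 in array 1 labelled SCLtg LMO1tg, against 10.37 and 10.45 in arrays 2 and 3 labelled control, and these 3 arrays are called the high set. It was 8.70 and 8.64 in arrays 2 and 3 labelled SCLtg LMO1tg, against 9.19 in array 1 labelled control, the low set. The sets were cut at the largest gap between these means, and the labels name no batch. A figure title calls them hybridization sets. Each set holds both labels, so differences are also given within the sets, where 1 group is a single array and no test was made.

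Promoters are shown first for the genes to which the values below return. RefSeq windows of the 250 bases upstream of a transcript start, on GRCm38.p6, matched 9 of the 10 genes, with 10 windows in all. They were searched on both strands for 4 motifs. The E-box letters CAGATG are preferred by SCL paired with an E protein, and the E-box letters CAGCTG by E proteins. The letters AGATAA are bound by factors of the Gata family. The letters CACGTG form the core of the element bound by TFEB, a transcription factor of lysosomal genes. CAGCTG and CACGTG read the same on both strands, and no 2 of the 4 motifs share a full match. The sequences run 5′ to 3′ along the strand of the gene, with matches in capitals. The windows are the upstream one of 2 Ctla2a windows (chr13:60936626-60936875, minus strand), that of Ctsd (chr7:142387828-142388077, minus strand) and that of Lamp1 (chr8:13158911-13159160, plus strand), shown for the member with the largest difference and for the 2 lysosomal members with the most CACGTG.
Ctla2a: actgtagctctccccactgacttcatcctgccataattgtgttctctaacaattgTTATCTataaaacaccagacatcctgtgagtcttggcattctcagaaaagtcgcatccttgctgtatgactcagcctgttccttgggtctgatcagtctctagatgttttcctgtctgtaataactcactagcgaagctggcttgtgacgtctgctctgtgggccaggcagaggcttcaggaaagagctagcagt
Ctsd: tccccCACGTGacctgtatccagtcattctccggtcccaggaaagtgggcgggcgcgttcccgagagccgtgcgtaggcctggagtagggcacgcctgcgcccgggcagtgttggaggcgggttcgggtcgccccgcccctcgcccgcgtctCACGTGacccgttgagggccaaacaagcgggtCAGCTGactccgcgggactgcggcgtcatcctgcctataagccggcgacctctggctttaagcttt
Lamp1: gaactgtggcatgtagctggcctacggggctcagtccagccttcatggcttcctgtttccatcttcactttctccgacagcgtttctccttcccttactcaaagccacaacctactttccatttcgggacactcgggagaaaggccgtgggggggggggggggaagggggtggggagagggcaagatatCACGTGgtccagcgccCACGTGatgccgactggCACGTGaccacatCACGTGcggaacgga

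The Ctla2a window shown held the motif of Gata factors once, as TTATCT 195 bases before the start, and the window of the other Ctla2a start held 0 matches. The Ctsd window held CACGTG at 245 and 98 bases before the start and CAGCTG at 66. The Lamp1 window held CACGTG 4 times, at 61, 45, 28 and 15 bases before the start. Among the 10 windows, CACGTG was present in 3, those of Ctsd, Lamp1 and Ctsl, and in 6.02% of all 32851 promoters searched. CAGCTG was present in 3, those of Cst3, Ctss and Ctsd, and in 13% of all promoters. AGATAA was present in 2, those of Ctsz and Ctla2a, and in 9.99% of all promoters. CAGATG was present in 0 of the 10 windows and in 14.4% of all promoters. The windows of the neighbouring Ctla2a and Ctla2b genes, both on chromosome 13, shared an identical run of 36 bases. A match describes the letters of a window and is neither a bound site nor a cause of a difference.

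Of the 10 genes, Ctla2a differed most between the labels. Its own probe set, 1448471_a_at, read 7.41, 7.31 and 7.51 in the arrays labelled SCLtg LMO1tg, against 9.28, 8.90 and 8.77 in the arrays labelled control. The groups were far apart and did not overlap, with means of 7.41 ± 0.10 in the arrays labelled SCLtg LMO1tg and 8.98 ± 0.27 in the arrays labelled control (SD, n = 3 each). The difference was −1.57 (SE 0.17), a signal 2.98-fold lower in the arrays labelled SCLtg LMO1tg. It was −1.87 within the low set and −1.42 within the high set, and between −1.68 and −1.43 with any 1 array left out. When probe sets were ordered by the rank product of the 9 pairwise differences, the quantity of the study's own method, Ctla2a stood 6th among the lower ones under these labels, and would stand 6th among the higher ones if the labels were exchanged.

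The related Ctla2b also read lower, close to the filter. Its probe set, 1452352_at, read 4.57, 4.95 and 5.20 in the arrays labelled SCLtg LMO1tg, against 6.0, 5.49 and 5.16 in the arrays labelled control. Array 3 labelled SCLtg LMO1tg lay just above array 3 labelled control, so the groups overlapped. Arrays 1 and 2 labelled SCLtg LMO1tg and array 3 labelled control lay below their 40th percentiles of 5.17, 5.10 and 5.24. The size of the difference can therefore not be set against that of Ctla2a. The difference was −0.64 (SE 0.24, 95% interval −1.18 to −0.11), which did not pass (limma adjusted p = 0.487, unadjusted p = 0.0236). It was −0.92 within the low set and −0.75 within the high set. Without array 1 labelled control it was −0.42, the smallest difference under any alternative, and adjusted p ranged from 0.0928 to 0.9998 over the alternatives.

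A further probe set, 1416811_s_at, names both Ctla2a and Ctla2b and was left out by the rule, since the share of each transcript in its signal is unknown. It read 6.79, 7.04 and 7.07 in the arrays labelled SCLtg LMO1tg, against 9.0, 8.74 and 7.87 in the arrays labelled control. The groups did not overlap, and array 3 labelled control lay nearest to the other group. The difference was −1.57 (SE 0.27), with −1.94 within the low set and −1.51 within the high set.

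**Figure D1:**
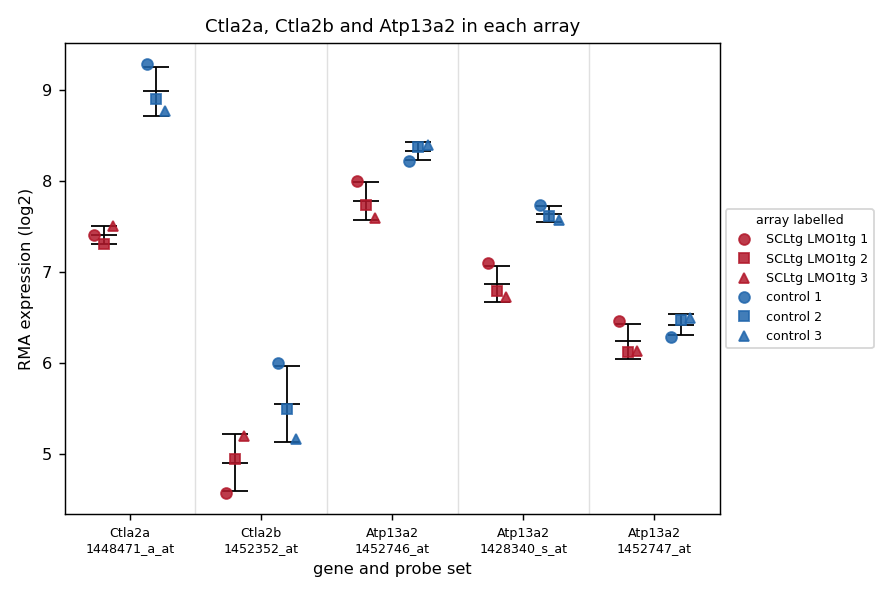
RMA expression (log2, y axis) of Ctla2a, Ctla2b and Atp13a2 in each of the 6 arrays, by probe set (x axis), with arrays labelled SCLtg LMO1tg in red on the left and arrays labelled control in blue on the right of each pair. Lines mark the group mean and its SD (n = 3), and the groups are separated for Ctla2a and for 2 of the 3 Atp13a2 probe sets.

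Atp13a2 encodes a P5-type ATPase of late endosomes and lysosomes that exports polyamines from the lysosome, and its human counterpart is mutated in a form of juvenile parkinsonism. It was read by 3 probe sets, which gave unequal differences. Probe set 1428340_s_at read 7.10, 6.78 and 6.73 in the arrays labelled SCLtg LMO1tg, against 7.73, 7.61 and 7.57 in the arrays labelled control. Its difference was −0.77 (SE 0.15), with no overlap. Probe set 1452746_at read 8.0, 7.74 and 7.59 in the arrays labelled SCLtg LMO1tg, against 8.21, 8.37 and 8.39 in the arrays labelled control. Its difference was −0.55 (SE 0.16), also with no overlap. In both of these, array 1 labelled SCLtg LMO1tg was the highest of its group and so the nearest to the arrays labelled control.

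The remaining probe set of Atp13a2, 1452747_at, did not separate the groups. It read 6.46, 6.13 and 6.13 in the arrays labelled SCLtg LMO1tg, against 6.29, 6.47 and 6.50 in the arrays labelled control. Arrays 2 and 3 labelled SCLtg LMO1tg were the lowest, while array 1 lay above array 1 labelled control. Its difference was −0.18 (SE 0.15). It was −0.29 without array 1 labelled SCLtg LMO1tg and with array weights, and −0.09 with a block for the low and high sets. Within the low and high sets the differences were −0.98 and −0.49 for 1428340_s_at, −0.55 and −0.38 for 1452746_at, and −0.16 and −0.02 for 1452747_at.

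The background for such separation is given once. Over all tested probe sets, 5.82% were lower with no overlap in the arrays labelled SCLtg LMO1tg and 7.36% were higher with no overlap. Of the 4 probe sets of Ctla2a and Atp13a2, 3 were lower with no overlap, from which nothing is read because these genes were chosen by this contrast. Of the 12 tested probe sets of the other 8 genes, 0 were lower and 1 was higher with no overlap. None of these 12 passed limma's adjusted threshold, and 1, that of Ctla2b, had an unadjusted p under 0.05, against 8.86% of all tested probe sets. Of the 12 differences, 10 lay above 0 and 2 below (7 and 5 when the arrays were quantile normalized once more, and 5 and 7 without array 3 labelled control), and 11 of the 95% intervals held 0. Several of these probe sets read the same gene and are not independent of each other.

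Among the cysteine cathepsins, Ctsb, a cathepsin found in most cells, was read by 4 probe sets. The brightest, 1417490_at, read 8.92, 9.03 and 9.11 in the arrays labelled SCLtg LMO1tg, against 8.90, 8.81 and 8.30 in the arrays labelled control. All arrays labelled SCLtg LMO1tg lay above all arrays labelled control, by a gap far smaller than the spread of the control arrays. The difference was 0.35 (SE 0.18, 95% interval −0.06 to 0.77, limma adjusted p = 0.598), with 0.18 within the low set and 0.36 within the high set. Without array 3 labelled control it was 0.17.

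The other Ctsb probe sets overlapped between the groups. Probe set 1448732_at read 6.59, 7.17 and 6.81 in the arrays labelled SCLtg LMO1tg, against 6.72, 7.34 and 6.17 in the arrays labelled control, a difference of 0.11 (SE 0.28, limma adjusted p = 0.892). Array 3 labelled control was the lowest here, and without it the difference turned to −0.17. Probe set 1417491_at read 6.24, 6.43 and 6.36 in the arrays labelled SCLtg LMO1tg, against 6.04, 6.16 and 6.27 in the arrays labelled control, a difference of 0.19 (SE 0.14, limma adjusted p = 0.683). Probe set 1417492_at, below the filter and not tested, read 4.68, 4.74 and 4.65 in the arrays labelled SCLtg LMO1tg and 4.99, 4.88 and 4.35 in the arrays labelled control.

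Ctsl encodes cathepsin L, the protease whose propeptide the Ctla2 proteins resemble. It read 8.60, 8.05 and 8.08 in the arrays labelled SCLtg LMO1tg, against 7.93, 8.09 and 7.61 in the arrays labelled control. Array 1 labelled SCLtg LMO1tg was the highest and array 3 labelled control the lowest, and the other 4 arrays lay close together. The difference was 0.37 (SE 0.20, 95% interval −0.08 to 0.81) and did not pass (limma adjusted p = 0.604), with 0.13 within the low set and 0.75 within the high set. It was 0.19 without array 1 labelled SCLtg LMO1tg, 0.23 without array 3 labelled control and 0.15 with array weights. A miss of the threshold does not show that the level was equal, since the interval reaches 0.81.

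Ctss encodes cathepsin S, a protease of antigen-presenting cells. It read 8.53, 8.07 and 8.69 in the arrays labelled SCLtg LMO1tg, against 8.42, 8.58 and 8.09 in the arrays labelled control. The lowest arrays of both groups were nearly level, and the groups overlapped throughout. The difference was 0.07 (SE 0.20, 95% interval −0.38 to 0.52, limma adjusted p = 0.908). It was −0.04 within the low set and 0.20 within the high set, and −0.07 without array 3 labelled control.

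Ctsz encodes cathepsin Z, also called cathepsin X, which removes single residues from the carboxyl end of proteins. Probe set 1417868_a_at read 6.89, 7.50 and 7.59 in the arrays labelled SCLtg LMO1tg, against 7.46, 7.23 and 5.81 in the arrays labelled control. The groups overlapped except for array 3 labelled control, which lay more than 1 unit below every other array. The difference was 0.49 (SE 0.39, 95% interval −0.39 to 1.37, limma adjusted p = 0.691), and without that array it was −0.02.

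The other Ctsz probe sets also had array 3 labelled control as their lowest. Probe set 1417870_x_at read 6.80, 7.24 and 7.13 in the arrays labelled SCLtg LMO1tg, against 7.11, 7.08 and 5.95 in the arrays labelled control, with a difference of 0.34 (SE 0.30, limma adjusted p = 0.706), and of −0.04 without that array. Probe set 1417869_s_at read 5.17, 5.21 and 5.26 in the arrays labelled SCLtg LMO1tg, against 5.36, 4.71 and 4.46 in the arrays labelled control, a difference of 0.37 (SE 0.22, limma adjusted p = 0.625). Without array 3 labelled control it was 0.18, and without array 1 labelled control 0.63.

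Ctsd encodes cathepsin D, an aspartic protease of the lysosome that cystatins do not inhibit. It read 9.47, 9.79 and 9.79 in the arrays labelled SCLtg LMO1tg, against 9.92, 9.62 and 9.28 in the arrays labelled control. The arrays labelled control spanned all of the arrays labelled SCLtg LMO1tg, with their own highest and lowest values outside. The difference was 0.08 (SE 0.19, 95% interval −0.35 to 0.51, limma adjusted p = 0.889), with −0.13 within the low set and 0.02 within the high set. It turned to −0.08 without array 3 labelled control.

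Cst3 encodes cystatin C, a secreted inhibitor of cysteine cathepsins that is abundant in dendritic cells. It read 8.26, 7.84 and 7.94 in the arrays labelled SCLtg LMO1tg, against 8.18, 8.47 and 7.95 in the arrays labelled control. Array 2 labelled control was the highest and the groups overlapped. The difference was −0.19 (SE 0.18, 95% interval −0.60 to 0.23, limma adjusted p = 0.737), with −0.29 within the low set and 0.05 within the high set. It was −0.05 without array 2 labelled control, −0.31 without array 3 labelled control or array 1 labelled SCLtg LMO1tg, and −0.41 with array weights.

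Lamp1 encodes a heavily glycosylated protein of the lysosomal membrane and serves as a marker of the organelle. It read 9.96, 10.01 and 9.96 in the arrays labelled SCLtg LMO1tg, against 10.03, 9.85 and 9.70 in the arrays labelled control. The 3 arrays labelled SCLtg LMO1tg were nearly equal and lay within the span of the arrays labelled control. The difference was 0.12 (SE 0.14, 95% interval −0.21 to 0.44, limma adjusted p = 0.785), the narrowest interval among Ctsd, Ctsl, Ctss, Cst3 and Lamp1. It was 0.04 without array 3 labelled control and 0.20 without array 1 labelled control. Outside Ctla2a and Atp13a2, 11 of the 12 tested probe sets had intervals that held 0. Those of Ctsd, Lamp1 and Ctsl, whose windows hold CACGTG, were among them. Whether CACGTG bears on a difference was not tested.

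**Figure D2:**
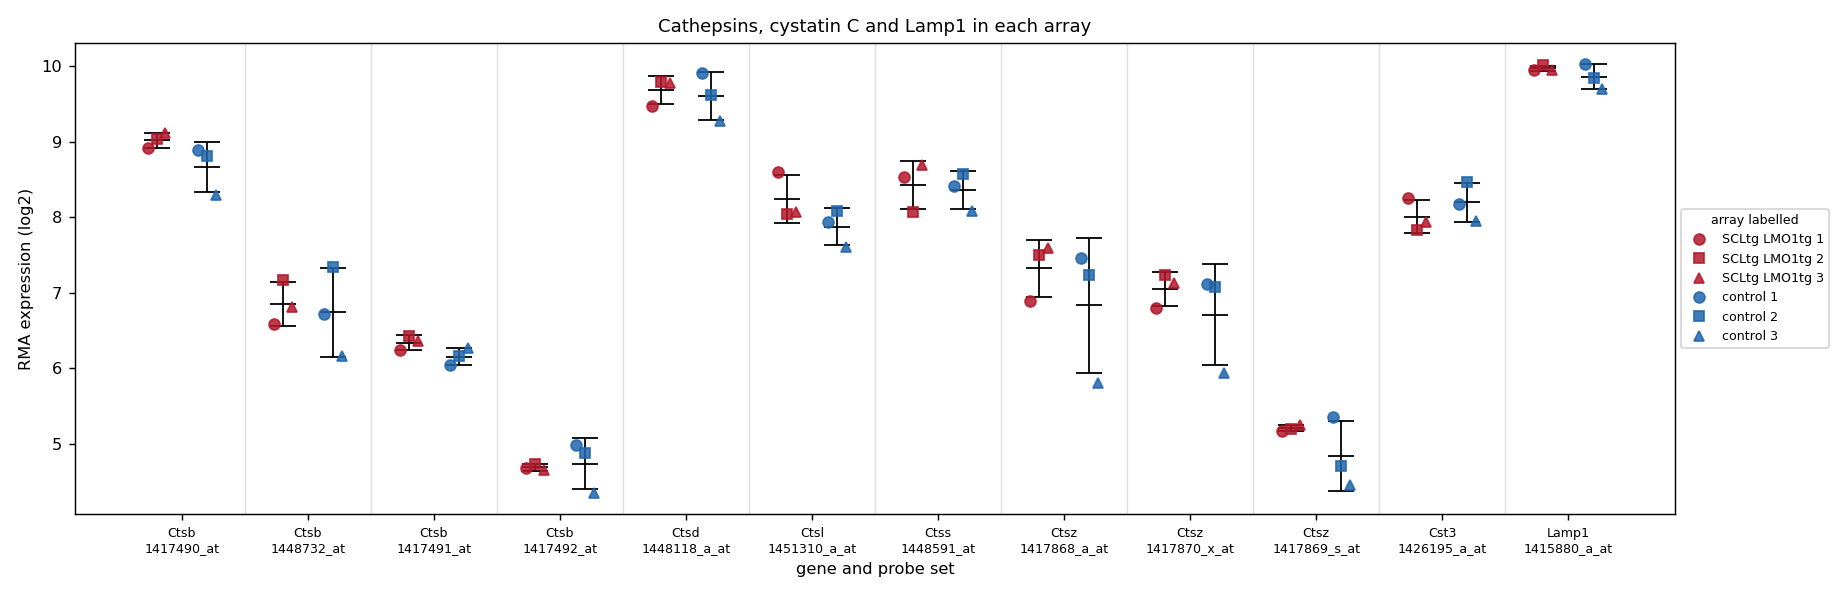
RMA expression (log2, y axis) of the cathepsin genes, Cst3 and Lamp1 in each array, by probe set (x axis), with arrays labelled SCLtg LMO1tg in red on the left and arrays labelled control in blue on the right of each pair, and lines for the mean and SD (n = 3). The blue triangle, array 3 labelled control, is the lowest point in all 3 Ctsz probe sets and in Ctsd, Ctsl and Lamp1.

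Array 3 labelled control was the lowest of the 6 arrays in 9 of the 13 probe sets of the other 8 genes, all of them cathepsin genes or Lamp1. The same array was the lowest in 25 of 87 genes of the lysosomal lists described below, 28.7%, and in 25% of all tested probe sets. Its array median, 5.70, was the highest of the 6. What sets this array apart in these genes was not tested.

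**Figure D3:**
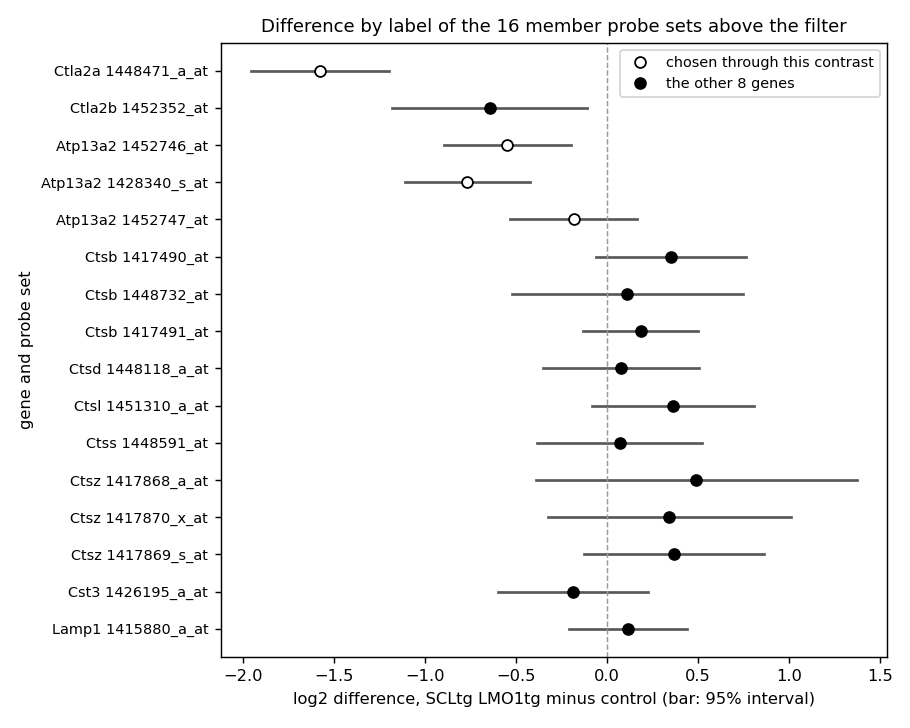
Difference in log2 expression, SCLtg LMO1tg minus control (x axis), of the 16 tested probe sets (y axis), with 95% intervals from the fit across all probe sets. Open circles mark Ctla2a and Atp13a2, which were chosen through this contrast, so their intervals are not a test. Among the filled circles, the other 8 genes, the interval of Ctla2b alone lies wholly below 0.

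**Figure D4:**
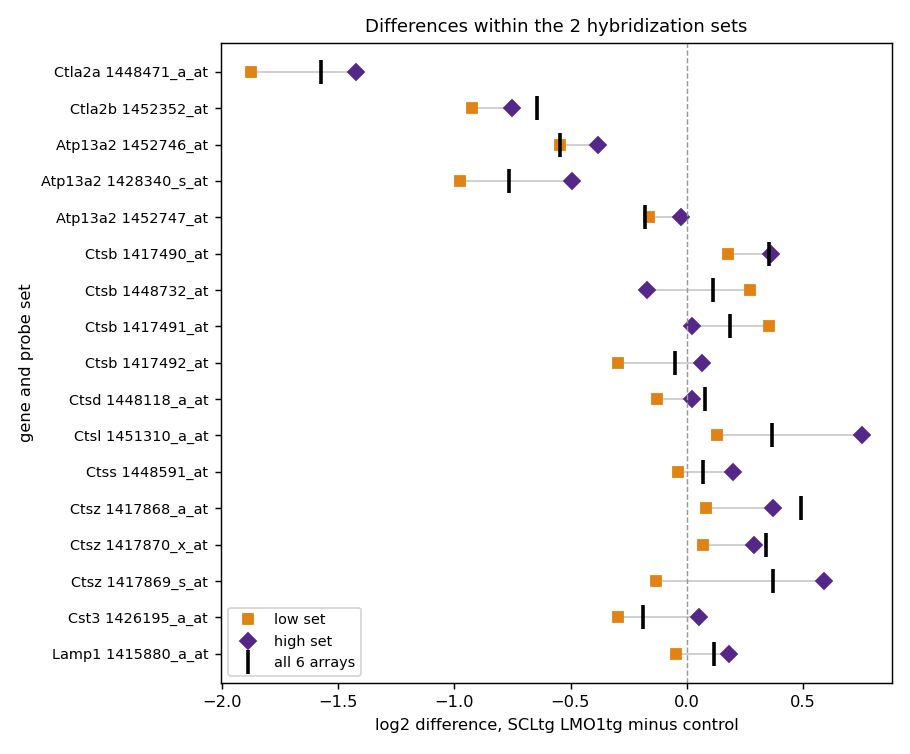
Difference in log2 expression, SCLtg LMO1tg minus control (x axis), of all 17 probe sets (y axis) within the low set (orange squares), within the high set (purple diamonds) and over all 6 arrays (black bars). Ctla2a, Ctla2b and the 3 Atp13a2 probe sets lie below 0 in both sets, while Ctsd, Ctss, Cst3, Lamp1 and some probe sets of Ctsb and Ctsz lie on opposite sides of 0 in the 2 sets.

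The genes whose 6 values followed those of Ctla2a most closely were taken by Pearson's r over the 6 arrays, as a description. They were Sytl2, a vesicle trafficking gene (r = 0.995), Txnip, which encodes a thioredoxin-binding protein (r = 0.993), Gstp1, a glutathione transferase gene (r = 0.989), Nfe2, a transcription factor gene (r = 0.988), and Cpa3, the carboxypeptidase gene of mast cells (r = 0.988). All 5 were lower with no overlap in the arrays labelled SCLtg LMO1tg. Nothing is read from this, since they were picked by likeness to a gene chosen through the contrast. The 6 points share their division into 2 groups, which by itself raises r. Their differences ran from −2.53 for Cpa3 to −0.16 for Gstp1.

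Lists of other lysosomal genes were read by 1 probe set a gene, the tested one with the highest mean. Of 141 genes in 7 lists, 87 were tested. None passed limma's adjusted threshold, against 0.138% of all 8693 genes tested, and at an unadjusted p under 0.05 there were 4 higher and 5 lower genes, or 10.3%, against 8.97% of all genes. The differences lay above 0 for 44 genes and below 0 for 43, with a median of 0.01, and the median of all genes was −0.01. When the arrays were quantile normalized once more, 37 lay above 0 and 50 below, and when each array was centred on its median, 52 and 35. Within the low and high sets the median of the 87 was 0.02 and −0.03.

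Of the other cathepsins and legumain, 5 of 18 genes were tested, with a median difference of 0.14. Ctsc, the gene of cathepsin C, which activates granule serine proteases, had 0.36 (SE 0.19), Ctse, the gene of an aspartic cathepsin, 0.30 (SE 0.22), and Ctsa, the gene of a lysosomal carboxypeptidase, −0.24 (SE 0.18). None of the 5 had an unadjusted p under 0.05.

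Of the list named other cysteine protease inhibitors, 5 of 16 genes were tested, with a median of 0.21. Only Cst7 and Cstb among the tested genes encode cystatins, and their differences had opposite signs. The rest were serpin genes, and the median was the value of 1 of these. It therefore does not describe the cystatin genes. Whether these serpins inhibit cysteine proteases was not tested. Cst7, the gene of cystatin F, which inhibits cathepsins inside cytotoxic and myeloid cells, read 5.72, 5.30 and 5.32 in the arrays labelled SCLtg LMO1tg, against 6.51, 6.62 and 5.81 in the arrays labelled control. The groups did not overlap, and array 3 labelled control was the nearest to the other group. The difference was −0.86 (SE 0.23, limma adjusted p = 0.314), with −1.20 within the low set and −0.49 within the high set. Cstb, the gene of cytosolic cystatin B, had a difference of 0.36 (SE 0.25), with −0.13 within the low set and 1.04 within the high set. Serpinb6a, a serpin gene, had 0.25 (SE 0.14).

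Of the vacuolar proton ATPase genes, 16 of 19 were tested and 14 lay above 0, with a median of 0.26, a lower quartile of 0.08 and an upper quartile of 0.32. The quartiles of all genes were −0.15 and 0.18. Atp6v0d1, a subunit of the membrane sector, had 0.44 (SE 0.15, limma adjusted p = 0.456), and Atp6v1a, the catalytic subunit, 0.41 (SE 0.17, limma adjusted p = 0.521), both with no overlap between the groups. Atp6v1h, a regulatory subunit, had 0.38 (SE 0.21). After quantile normalization 11 of the 16 lay above 0, with a median of 0.14. The median of the list was 0.07 within the low set and 0.22 within the high set.

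Of the lysosomal hydrolases and cofactors, 30 of 42 genes were tested, 14 above 0 and 16 below (11 and 19 after quantile normalization, 17 and 13 with median-centred arrays), with a median of −0.03. Gaa, the acid glucosidase gene, had −0.35 (SE 0.15, limma adjusted p = 0.553), Ppt1, a thioesterase gene, 0.30 (SE 0.16), and Neu1, the sialidase gene, −0.30 (SE 0.19). Of the lysosomal membrane proteins, 17 of 23 were tested, 5 above 0 and 12 below (9 and 8 with median-centred arrays), with a median of −0.03. Slc11a2, a transporter of divalent metal ions, had 0.54 (SE 0.19, limma adjusted p = 0.465), Scarb2, the receptor that carries glucocerebrosidase to lysosomes, −0.36 (SE 0.15), and Lamp2, the relative of Lamp1, 0.31 (SE 0.15).

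Of the genes of lysosomal sorting and transcription, 12 of 19 were tested, 4 above 0 and 8 below (2 and 10 after quantile normalization), with a median of −0.11. Gga2, a sorting adaptor gene, had 0.50 (SE 0.16, limma adjusted p = 0.443), Igf2r, the large mannose 6-phosphate receptor, −0.36 (SE 0.13, limma adjusted p = 0.487), and Gnptab, a subunit of the enzyme that makes the mannose 6-phosphate tag, −0.32 (SE 0.14). Of the other P5 ATPases, the relatives of Atp13a2, 2 of 4 were tested, and Atp13a1 had −0.19 (SE 0.14) and Atp13a3 0.13 (SE 0.24).

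**Figure D5:**
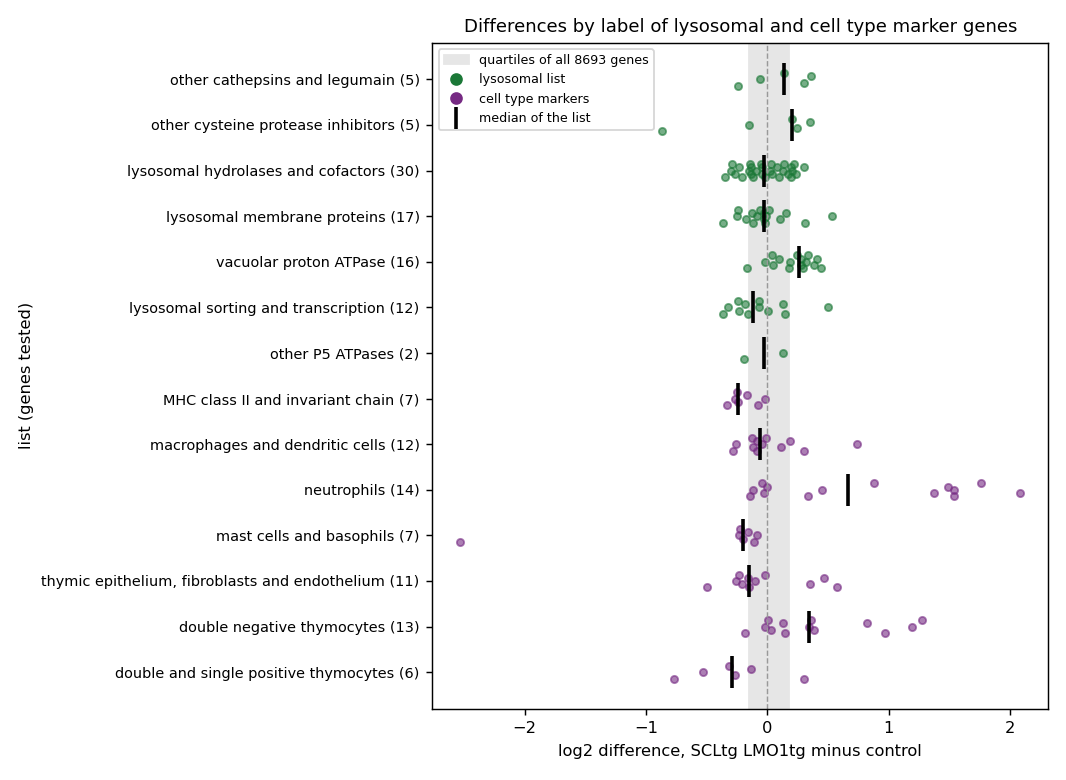
Difference in log2 expression, SCLtg LMO1tg minus control (x axis), of each tested gene of the lysosomal lists (green) and cell type marker lists (purple), with the number tested beside each name (y axis), list medians as black bars and the quartiles of all 8693 genes in grey. The lysosomal medians lie between −0.11 and 0.26, while the neutrophil median lies at 0.67 and Cpa3 stands alone at −2.53.

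Markers of cells that carry much lysosomal protease or that are known to express Ctla2 genes were read beside these results. In bulk RNA, fewer cells of a type and less RNA per cell cannot be told apart. The 12 tested of 21 macrophage and dendritic cell genes had a median difference of −0.06 (−0.08 within the low set and 0.18 within the high set), and their mean level ran from 6.79 to 7.12 in the arrays labelled SCLtg LMO1tg and from 6.87 to 6.97 in the arrays labelled control. The 7 tested of 10 MHC class II and invariant chain genes all lay below 0 (6 of 7 with median-centred arrays), with a median of −0.24, but −0.56 within the low set and 0.12 within the high set, and 0 passed. The part of these cells in the cathepsin values was not tested.

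Of the neutrophil genes, 14 of 15 were tested, 10 above 0 and 4 below, with a median of 0.67, similar within the low set (0.78) and within the high set (0.67). Their mean level ran from 6.42 to 7.06 in the arrays labelled SCLtg LMO1tg and from 5.59 to 6.22 in the arrays labelled control. Of the 14, 0 passed the adjusted threshold. At an unadjusted p under 0.05, 7 were higher and 0 lower, or 50.0%, against 8.97% of all 8693 genes in either direction. Of the mast cell and basophil genes, 7 of 11 were tested and all lay below 0, with a median of −0.20. The median was −0.05 within the low set, where Mcpt8 (0.14) and Cma1 (0.12) lay above 0, and −0.23 within the high set. The mean level of the 7 was 6.09 to 6.19 in the arrays labelled SCLtg LMO1tg and 6.55 to 6.73 in the arrays labelled control. Only Cpa3 of these 7 passed (difference −2.53, SE 0.16, limma adjusted p = 2.1e-04), and the other 6 lay between −0.23 and −0.08. The part of neutrophils in the cathepsin values, and that of mast cells in the Ctla2a difference, was not tested.

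Thymocyte genes were read as a check of the tissue, though the direction of 1 of them, Ptcra, also bears on the labels, as given above. Of double negative thymocyte genes, 13 of 15 were tested, 11 above 0 and 2 below, with a median of 0.34. With a block for the low and high sets 9 lay above 0 and 4 below (median 0.20). With array weights the counts were 13 and 0 (median 0.38). The median was 0.11 within the low set and 0.30 within the high set. Only Ptcra, the gene of the pre-T cell receptor alpha chain, passed, as higher (difference 1.28, SE 0.16, limma adjusted p = 0.0230). Their mean level ran from 8.99 to 9.35 in the arrays labelled SCLtg LMO1tg and from 8.64 to 9.03 in the arrays labelled control. Cd3e, the gene deleted in both groups, differed by 0.07 (SE 0.15, limma adjusted p = 0.881), and its probe set read 8.41 to 8.72 over all arrays, so it does not show the deletion. Double and single positive thymocyte genes had a median of −0.29 over 6 tested of 13. Epithelial, fibroblast and endothelial genes had a median of −0.15 over 11 tested of 17, with 3 above 0 and 8 below. The 3 were the epithelial genes Epcam (0.57), Ccl25 (0.47) and Krt8 (0.35), while the epithelial genes Krt5 (−0.10) and Foxn1 (−0.26) lay below 0. Krt8 (8.43) and Ccl25 (7.28) were highest in array 1 labelled SCLtg LMO1tg, as was Ctsl. The other epithelial genes named were not. Epcam read 8.82 in that array, the lowest of its group. Krt5 was highest in array 3 labelled control (6.37) and Foxn1 in array 2 labelled control (5.79). The part of epithelial cells in the Ctsl value was not tested.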

How the data were processed

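Total thymocyte RNA, labelled by the Affymetrix small sample protocol, was hybridized to 6 arrays. The deposited log2 values, 1 per probe set and array, are RMA output from affy as run by the authors; versions are not given in the sources used here. The authors removed probe sets called absent by MAS5, which needs probe intensities not used here, and applied Rank Products, of which the order by rank product is given here without permutations. Control probe sets (64) were not tested, and the number of arrays limits precision. In the platform annotation 20393 probe sets carry 1 gene, 691 carry more and 1606 carry no gene.

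Groups followed the labels. The fit was made in R 4.3.3 (limma 3.58.1) without covariates and tested on simulated data. The exact permutation test cannot go below p = 0.1 with 3 arrays against 3, so none was made. Genes named are the 10 members, up to 3 genes a list with the largest absolute difference, Lmo1, Tal1 and Cd3e, and the 5 genes closest to Ctla2a. Xist, Eif2s3y, Ptcra and the epithelial genes were named after their values were seen. Members and lists were chosen with earlier results of these data known. Alternatives were other filters (none, 60th percentile), normalizations (quantile, median-centred), variance models and array weights. Others were the replicate block, the low and high sets as a block, averaging over probe sets of 1 gene, and each array left out. Same-numbered arrays had residual correlations of −0.63, 0.05 and −0.38, so numbers were not taken as pairs.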

Additional observations from a re-analysis of the deposited data

How the results depend on the processing

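None of the 12 probe sets of the other 8 genes passed limma under any alternative, and of their 166 values over the alternatives, 154 kept their direction and their side of the threshold and 12 turned. The 56 values of Ctla2a and Atp13a2, which have no test, were all below 0, from which nothing is read because these genes were chosen by this contrast. With quantile normalization Ctsd turned to −0.081, Ctss to −0.077 and Lamp1 to −0.058. Ctsd turned to −0.052 with a block for the low and high sets, and Ctss to −0.22 with array weights. With 1 array left out, the differences ran from −0.17 to 0.41 for Ctsb (1448732_at), −0.085 to 0.24 for Ctsd, −0.067 to 0.25 for Ctss, −0.021 to 0.81 for Ctsz (1417868_a_at) and −0.041 to 0.54 for Ctsz (1417870_x_at). Each of these lowest values was reached without array 3 labelled control. Ctsb (1448732_at) was also below 0 without array 2, and Ctss without array 3, of those labelled SCLtg LMO1tg. The cause was not tested.

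Over all probe sets the count passing was 14, against 360 with array weights and 8 with the replicate block, and between 7 and 20 with 1 array left out (7 without array 2 or 3 labelled SCLtg LMO1tg or array 2 labelled control). The replicate block changed no call among the other 8 genes or the lysosomal lists. With array weights, where 360 of all 13776 probe sets passed, 2 of the 87 lysosomal genes did. These were Cst7 (difference −1.08, limma adjusted p = 0.0247) and Slc11a2 (0.75, limma adjusted p = 0.0460). The share of all probe sets that passed was similar, so the 2 are not read as a lysosomal result. Under the other alternatives 0 lysosomal genes passed. The median difference of the lysosomal genes was −0.04 with quantile normalization and 0.05 with median-centred arrays. The median of all probe sets moved by at most 0.06 under any alternative. Ctla2b and 1 Ctsz probe set (1417869_s_at) fell below the filter at the 60th percentile and have no value there. With 3 arrays a group and dim probe sets near the filter, small differences could not be detected.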
